A study of Mus musculus with 2 samples.

Results

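Haem metabolism was examined through 10 genes in hepatocytes of C57BL6J mice aged 8 weeks, in 1 library made 24 h after an intraperitoneal injection of 300 mg/kg acetaminophen (APAP) in saline and in 1 control library that received no agent. The genes were chosen by function: Alas1, Alas2, Alad, Urod, Cpox and Fech for haem synthesis, Hmox1 and Blvrb for its breakdown, and Hp and Hpx for scavenging in plasma. All 10 were found by their Ensembl identifiers among the 20823 genes listed, and all 10 had at least 20 counts in the 2 libraries together. Livers were perfused with collagenase, flow sorting removed endothelial cells by their surface CD31 and immune cells by their CD45, and 20000 hepatocytes with high surface Cxcr2, a chemokine receptor, were collected per library. Cxcr2 itself, the transcript of the receptor used for sorting, had 2 counts in the APAP library and 0 in the control library. How many animals each library came from is not stated in the labels. Because each group was a single library, replicate error could not be measured and nothing was tested. Every interval below covers counting error only and describes the difference of these 2 libraries, not of the conditions.

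Haem is an iron-bearing ring that cytochromes P450, catalase and haemoglobin need for their work. Most of it is made in the bone marrow, and in the liver it serves above all the P450 enzymes, among them those that turn APAP into its toxic product. Synthesis begins in mitochondria with 5-aminolaevulinate synthase, the step that limits the rate in liver, passes through the cytosol and ends in mitochondria with the insertion of iron by ferrochelatase. Haem oxygenase opens the ring to biliverdin, iron and carbon monoxide, and biliverdin reductases turn biliverdin into bilirubin. Haptoglobin and hemopexin, secreted by hepatocytes, bind free haemoglobin and free haem in plasma.

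Of the 10 genes, both plasma scavengers were more than 6-fold higher in the APAP library, the erythroid-type synthase gene Alas2 was 2.63-fold lower, and the other 7 were within 2-fold of the control library. The call of a gene as higher or lower needed a ratio of scaled counts of at least 2 in that direction, a 95% counting interval without 1, and 20 or more counts over both libraries. By this rule 2 of the 10 genes were higher, beside 10.7% of all 14096 genes with at least 20 counts, and 1 of the 10 was lower, beside 7.09% of all genes. The median log2 fold of the 10 genes was -0.10, against 0.02 over all genes. With scaling by total counts, again 2 of the 10 were higher and 1 was lower, beside 17.3% and 4.44% of all genes, and the medians were 0.24 for the 10 genes and 0.37 for all genes. In a bulk library, fewer cells of a type and less RNA per cell cannot be told apart.

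**Figure D1:**
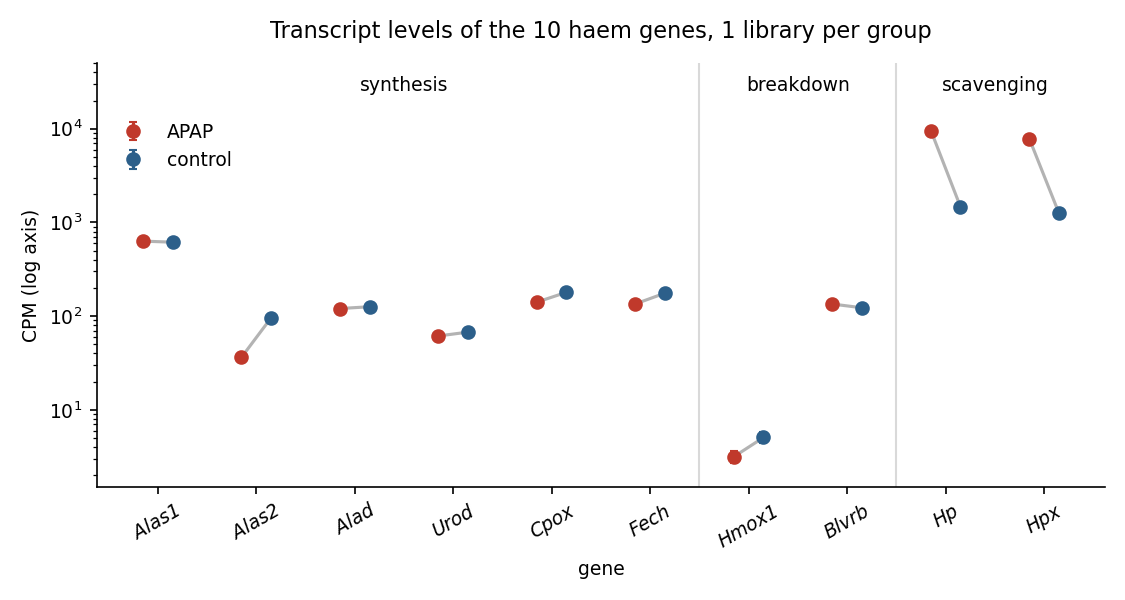
Level of each of the 10 genes in CPM, counts scaled to a common library size (log axis), in the APAP library (red) and the control library (blue), 1 library per group, with exact Poisson 95% intervals that are mostly smaller than the points. Hp and Hpx were higher in the APAP library, at 9562 and 7790 CPM against 1470 and 1257 CPM in the control library, and Alas2 was lower, at 36.4 against 95.7 CPM.

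Hp encodes haptoglobin, the carrier that binds haemoglobin released from red cells. It had 549770 counts in the APAP library and 68365 in the control library, which is 9562 against 1470 CPM (counts scaled to a common library size). The ratio of levels was 6.51 (95% counting interval 6.45 to 6.56). Hpx encodes hemopexin, which binds free haem. It had 447888 counts in the APAP library and 58453 in the control library, or 7790 against 1257 CPM, with a ratio of 6.20 (6.15 to 6.25). Together the 2 scavenger genes took 1.96% of all counts in the APAP library and 0.242% in the control library.

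Both scavenger genes were among the most abundant transcripts per unit of length. By RPKM (CPM per 1000 bases of annotated exons), Hp ranked 11 in the APAP library and 77 in the control library among 20686 genes with a length, and Hpx ranked 13 and 86. Hp stood 1.15 times as high as Hpx by RPKM in the APAP library and 1.09 times as high in the control library. With the longest transcript as length, Hp had 7110 RPKM in the APAP library and 1093 RPKM in the control library. Hpx then had 5197 and 838 RPKM, so Hp would stand further above it. The ratio of Hp to Hpx within a library does not depend on scaling between libraries, and it was 1.05 times as large in the APAP library (1.04 to 1.06). Set against Alb, the albumin gene, which was itself 1.57-fold higher in the APAP library, the ratio of Hp to Alb was 4.14 times as large in the APAP library (4.11 to 4.18) and that of Hpx to Alb was 3.95 times as large (3.91 to 3.98). By distance in log2 CPM over the 2 libraries, the gene most like Hp was Hpx, and the gene most like Hpx was Hp, at a distance of 0.37. The next in both cases was Fgg, the fibrinogen gamma chain gene, at 0.73 from Hp and 0.65 from Hpx.

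Promoter sequence is shown for Hpx, which differed in the same direction as Hp, and for Alas2 and Alas1, whose levels differed unequally between the libraries. Sequences are from RefSeq (GRCm38.p6, another build than the mm39 named for the counts), matched by symbol for 7 of the 10 genes, and each covers the 250 bases before an annotated transcription start, on the strand of the gene. Capitals mark matches on either strand to TTNNGNAA and TTGCNNAA (C/EBP type), TTCNNNGAA (STAT type) or TGACNNNGC (antioxidant element type). They also mark the acute phase STAT3 type, which is spelled CTGGGA, wherever it occurs on either strand. The same holds for the GATA type, which is spelled AGATAA in this search. The last motif, of NRF1 type, had a pair of GCGC blocks spaced by 2 bases of any kind and no match in the windows shown. The window before the other Alas1 start, which is not printed, held 2 matches to it, at -224 to -215 and at -195 to -186 from that start. The Hpx window is chr7:105600117-105600366 (minus strand), the Alas2 window is chrX:150547167-150547416 (plus strand), and the Alas1 window, before the more upstream of 2 annotated starts, is chr9:106247955-106248204 (minus strand).
Hpx: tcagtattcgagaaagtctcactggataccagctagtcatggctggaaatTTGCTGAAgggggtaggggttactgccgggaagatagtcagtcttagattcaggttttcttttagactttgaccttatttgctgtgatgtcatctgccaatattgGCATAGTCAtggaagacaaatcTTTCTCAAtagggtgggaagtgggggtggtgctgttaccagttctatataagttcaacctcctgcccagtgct
Alas2: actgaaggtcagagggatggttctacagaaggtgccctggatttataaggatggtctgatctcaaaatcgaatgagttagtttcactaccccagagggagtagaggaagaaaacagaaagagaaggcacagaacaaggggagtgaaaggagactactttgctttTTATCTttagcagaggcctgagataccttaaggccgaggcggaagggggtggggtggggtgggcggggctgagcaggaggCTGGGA
Alas1: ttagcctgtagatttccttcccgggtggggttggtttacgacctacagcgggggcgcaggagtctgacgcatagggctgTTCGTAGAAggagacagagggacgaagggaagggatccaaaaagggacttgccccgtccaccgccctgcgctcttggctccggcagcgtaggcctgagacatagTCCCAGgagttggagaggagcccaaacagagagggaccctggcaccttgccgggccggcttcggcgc

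In Hpx, a match to TTGCNNAA lay at -200 to -193 from the start, over the same bases as a match to TTNNGNAA on the other strand. A further match to TTNNGNAA lay at -73 to -66, and one to TGACNNNGC at -95 to -87. In Alas2, a match to AGATAA lay at -86 to -81 on the opposite strand, and one to CTGGGA at -6 to -1. In Alas1, a match to TTCNNNGAA lay at -171 to -163 and one to CTGGGA at -67 to -62. Among 32851 promoter windows of the same length, 36.8% held TTNNGNAA, 9.56% held TTGCNNAA, 7.02% held TTCNNNGAA, 27.0% held CTGGGA, 10.2% held TGACNNNGC, 9.99% held AGATAA and 4.98% held the NRF1 motif. A match describes letters in a window and is not evidence of binding.

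The 2 synthase genes differed unequally between the libraries. Alas1 encodes the 5-aminolaevulinate synthase of all tissues, the rate-limiting enzyme of liver haem synthesis, which drugs induce and haem represses. It had 36344 counts in the APAP library and 28632 in the control library, or 632 against 616 CPM, with a ratio of 1.03 (1.01 to 1.04). With total counts this ratio was 1.30. Alas2 encodes the synthase of red cell precursors, which supplies haem for haemoglobin. It had 2092 counts in the APAP library and 4453 in the control library, or 36.4 against 95.7 CPM, and was 2.63-fold lower (2.50 to 2.77). This fold lay at percentile 4.36 of the log2 folds of all genes with at least 20 counts, and with scaling by total counts it was 2.07-fold lower.

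Alas2 transcripts made up 12.9% of synthase transcripts per length in the APAP library and 28.6% in the control library. These shares used annotated exons as length. With the longest transcript instead, Alas1 had 186 RPKM in the APAP library and 181 RPKM in the control library. Alas2 then had 17.9 and 47.0 RPKM, so its shares would be smaller. By counts, the share was 5.44% (exact binomial 95% interval 5.22 to 5.67) in the APAP library and 13.5% (13.1 to 13.8) in the control library. The ratio of Alas1 to Alas2 was 2.70 times as large in the APAP library (2.56 to 2.85), a value free of scaling between libraries. Exons of Alas2 overlap those of Apex2, which lies on the opposite strand and had 431 counts in the APAP library and 333 in the control library. No source used here says whether counting used strand, so reads from the overlap are uncertain.

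Since Alas2 marks red cell precursors, 21 markers of red cells and their precursors were set beside it. The adult globin genes Hba-a1, Hba-a2, Hbb-bs and Hbb-bt and the erythroid factor gene Gata1 were among 14 markers that were not listed in the count table. Of the 7 listed, Slc4a1, the anion exchanger of the red cell membrane, had 1 count in the APAP library and 0 in the control library, and Epb42 had 0 and 2 counts. Klf1, an erythroid transcription factor gene, had 102 counts in the APAP library and 184 in the control library and was 2.23-fold lower (1.74 to 2.87), and the spectrin gene Sptb had 10 and 70 counts and was 8.65-fold lower (4.44 to 18.8). With total counts Klf1 was 1.76-fold lower. Only 3 of the 7 listed markers had at least 20 counts over both libraries. By the 2-fold rule 2 of these 3 were lower and 0 higher, beside 7.09% and 10.7% of all genes. Rhag had 2 counts in the APAP library and 0 in the control library, and Tmcc2 had 10 and 8. In all, 3 of the 7 listed markers had a higher CPM in the APAP library. Listed markers summed to 50.2 CPM in the APAP library, against 64.5 CPM in the control library, of which Xpo7, a gene of many tissues, held 48.1 and 58.8 CPM. The part of these markers in the level of Alas2 was not tested. The genes nearest to Alas2 in log2 CPM over the 2 libraries were Elovl6, a fatty acid elongase gene, and Ugt2b38, a glucuronosyltransferase gene, at distances of 0.06 each.

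**Figure D2:**
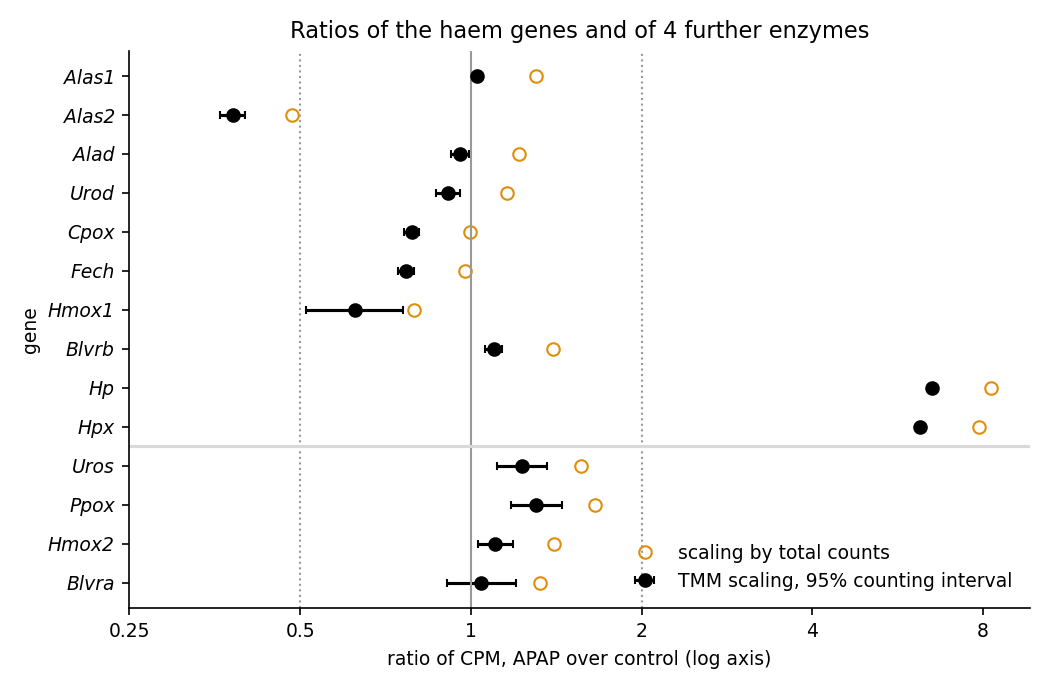
Ratio of CPM, APAP over control (log axis), for the 10 genes and for 4 further enzymes of the pathway, with TMM scaling (edgeR's trimmed mean) and its 95% counting interval (black) and with scaling by total counts (open orange). Hp and Hpx lay above 6 and Alas2 below 0.5 with both scalings, while Alad and Urod lay below 1 with the TMM and above 1 with total counts.

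Alad, Urod, Cpox and Fech, the 4 later synthesis genes of the chosen set, had ratios between 0.768 and 0.956 with the TMM. With total counts their ratios lay between 0.976 and 1.22, and all were short of 1.5-fold in both scalings. Alad, whose enzyme joins 2 aminolaevulinate molecules to porphobilinogen, had 6932 counts in the APAP library and 5863 in the control library, or 121 against 126 CPM, with a ratio of 0.956 (0.924 to 0.990) that was 1.22 with total counts. Urod, whose enzyme trims the side chains of uroporphyrinogen, had 3534 and 3142 counts, or 61.5 CPM in the APAP library against 67.6 CPM in the control library, with a ratio of 0.910 (0.867 to 0.955) that was 1.16 with total counts. The direction of Alad and Urod thus turned with the scaling.

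Cpox and Fech, which encode coproporphyrinogen oxidase and ferrochelatase of the mitochondrial end of the pathway, had lower ratios. Cpox had 8122 counts in the APAP library and 8362 in the control library, or 141 against 180 CPM, with a ratio of 0.786 (0.762 to 0.810). Fech had 7777 and 8190 counts, or 135 CPM in the APAP library against 176 CPM in the control library, with a ratio of 0.768 (0.745 to 0.792). With total counts these ratios were 0.998 and 0.976. Relative to Alas1 within each library, a comparison that no scaling alters, Alad was 0.931 times (0.897 to 0.968), Urod 0.886 times (0.842 to 0.932), Cpox 0.765 times (0.739 to 0.792) and Fech 0.748 times (0.723 to 0.774) as high in the APAP library as in the control library. All 4 of these genes thus stood lower against Alas1 in the APAP library, Cpox and Fech by more than Alad and Urod. The same did not hold for every later step. Uros and Ppox, later synthesis genes outside the chosen set, had ratios of 1.23 and 1.30, above the 1.03 of Alas1. Both thus stood higher against Alas1 in the APAP library.

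The 4 other enzyme genes of synthesis and breakdown that were examined were all within 2-fold, with a median log2 fold of 0.22. Uros and Ppox, which encode the synthesis enzymes uroporphyrinogen synthase and protoporphyrinogen oxidase, had ratios of 1.23 (1.11 to 1.36) and 1.30 (1.18 to 1.45). Exons of Ppox overlap those of B4galt3 on the opposite strand, so its counts are uncertain. Exons of Alas1 overlap those of an antisense gene, and exons of Cpox overlap those of Gpr15, also on the opposite strand. Neither of these overlapping genes is listed in the count table, and reads from these overlaps are uncertain too. Cpox and Ppox, neighbours in the pathway, thus had ratios on opposite sides of 1 in the main scaling, with Cpox at 0.998 under total counts.

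**Figure D3:**
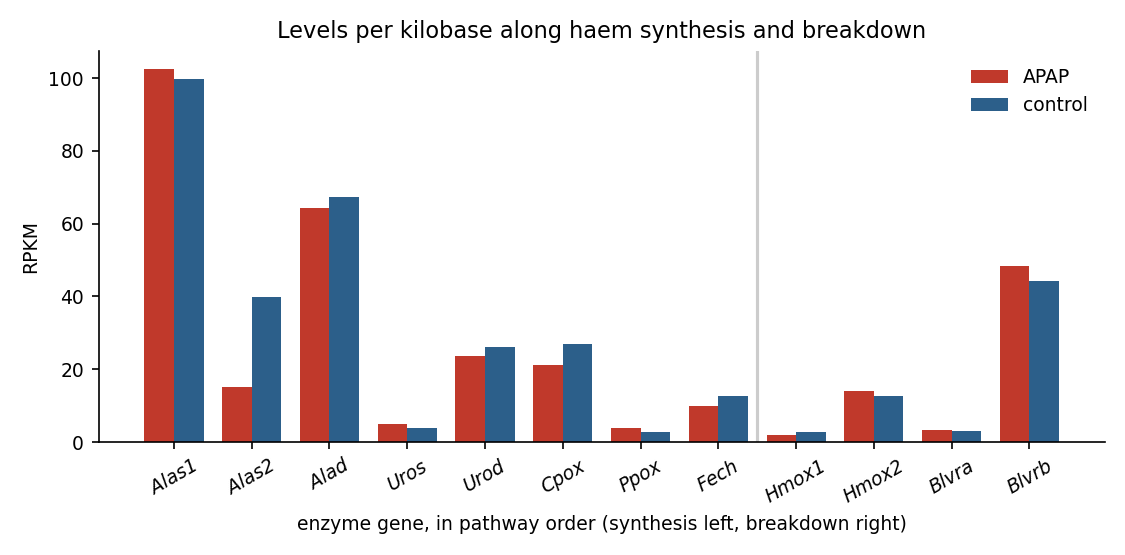
Levels per kilobase (RPKM) of 12 synthesis and breakdown enzyme genes in pathway order, in the APAP library (red) and the control library (blue), 1 library per group. Alas1 and Alad had the highest bars in both libraries, and the Alas2 bar stood at 15.1 RPKM in the APAP library against 39.8 RPKM in the control library.

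Levels of different genes were compared per length. Of the synthesis genes shown, Alas1 was highest, with 102 RPKM in the APAP library and 99.7 RPKM in the control library, followed by Alad with 64.4 and 67.4 RPKM. Urod had 23.7 RPKM in the APAP library and 26.1 RPKM in the control library, Cpox had 21.2 and 27.0 RPKM, and Fech had 9.78 and 12.7 RPKM. The lowest were Uros with 4.87 and 3.96 RPKM and Ppox with 3.76 and 2.89 RPKM. Alas2 stood at 15.1 RPKM in the APAP library, below Urod and Cpox, and at 39.8 RPKM in the control library, above them. Lengths were the union of annotated exons, and with the longest transcript instead, Alas2 also stood below Fech in the APAP library and below Cpox in the control library.

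Haem breakdown genes had no member at least 2-fold apart. Hmox1 encodes the inducible haem oxygenase, a classical target of the stress factor NRF2 that the haem-binding repressor BACH1 holds down. It had 182 counts in the APAP library and 236 in the control library, or 3.17 CPM (2.72 to 3.66) against 5.07 CPM (4.45 to 5.76), the lowest level per length of the 10 genes at 1.81 and 2.90 RPKM. It was 1.60-fold lower (1.32 to 1.96), and 1.26-fold lower with total counts. At a limit of 1.5-fold, Hmox1 joined Alas2, so that 2 of the 10 genes were lower beside 13.1% of all genes, while the same 2 scavenger genes were higher beside 17.6% of all genes.

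Hmox2 encodes the constitutive haem oxygenase. It had 1782 counts in the APAP library and 1305 in the control library, with a ratio of 1.10 (1.03 to 1.19). Its exons overlap those of Cdip1 on the opposite strand. Per length Hmox2 stood 7.73 times as high as Hmox1 in the APAP library and 4.37 times as high in the control library. The ratio of Hmox2 to Hmox1 was 1.77 times as large in the APAP library (1.44 to 2.18).

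Blvrb encodes biliverdin reductase B, a flavin reductase that in adults acts on other substrates more than on the main biliverdin isomer. It had 7744 counts in the APAP library and 5714 in the control library, or 135 against 123 CPM, with a ratio of 1.10 (1.06 to 1.13). Blvra, which encodes the main biliverdin reductase of adults, had 463 and 359 counts. Its ratio was 1.04 (0.907 to 1.20), an interval that held 1 in the main scaling, and 1.33 with total counts. Per length Blvrb stood 14.7 times as high as Blvra in the APAP library and 14.0 times as high in the control library.

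Macrophages, which express Hmox1 strongly, were checked by 21 markers. Of these, 12 were not listed, among them Adgre1, Clec4f and Vsig4, and the 9 listed summed to 8.11 CPM in the APAP library against 1.68 CPM in the control library, where 7 were at 0. Cd163, the macrophage receptor for haptoglobin bound to haemoglobin, had 10 counts in the APAP library and 0 in the control library. Cd68, a lysosomal gene of macrophages, had 287 and 3 counts, Mrc1, the mannose receptor gene, 105 and 75, and Csf1r, a growth factor receptor gene, 24 and 0. All 9 listed macrophage markers had a higher CPM in the APAP library, but only 3 had at least 20 counts over both libraries. Of these 3, 2 were higher by the 2-fold rule, beside 10.7% of all genes, and Mrc1 had a ratio of 1.13 (0.834 to 1.54). The part of the macrophage markers in the level of Hmox1 was not tested.

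**Figure D4:**
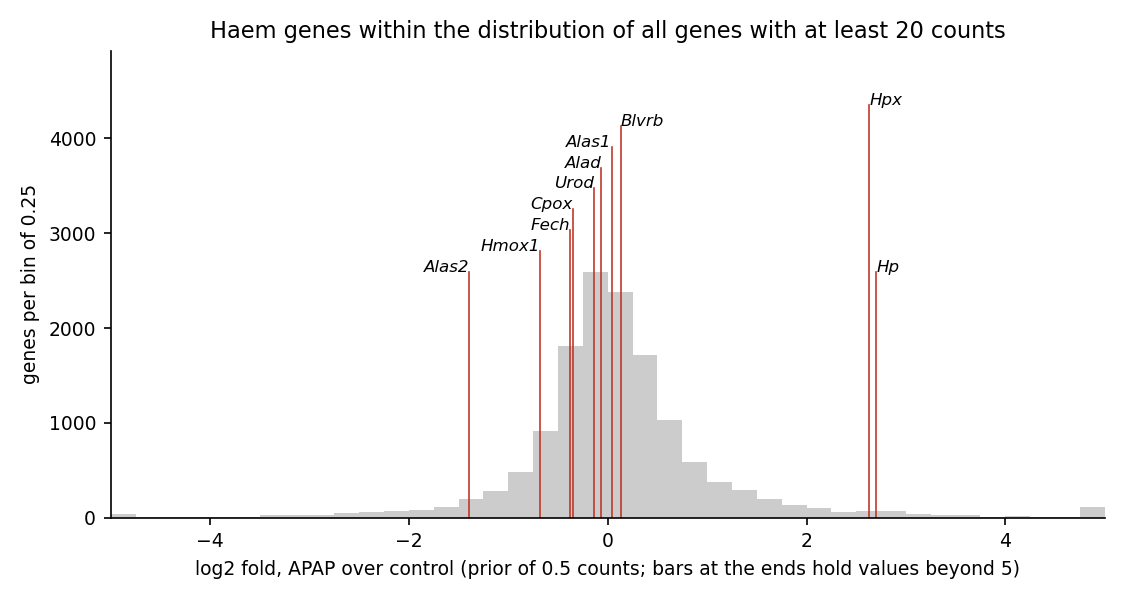
Number of genes per bin of log2 fold, APAP over control, for the 14096 genes with at least 20 counts (grey), with the log2 fold of each of the 10 haem genes (red lines, whose heights only separate the labels); the end bars hold values beyond 5. Hp and Hpx lay at 2.70 and 2.63, Alas2 at -1.40 and Hmox1 at -0.68, and the other 6 genes between -0.38 and 0.13.

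Within the distribution of log2 folds of all genes with at least 20 counts, Hp lay at percentile 97.6 and Hpx at percentile 97.4. Alas2 and Hmox1 lay at percentiles 4.36 and 11.97, Fech and Cpox at 22.3 and 24.0, and Urod, Alad, Alas1 and Blvrb at 38.2, 43.6, 51.1 and 58.0. The middle 50% of all genes ran from -0.33 to 0.44, a range that held Urod, Alad, Alas1 and Blvrb.

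Genes that carry haem or iron across membranes, or help in its handling, were mostly close to 1. Their median log2 fold was 0.02, and by the 2-fold rule 1 of 22 was higher and 0 were lower, beside 10.7% and 7.09% of all genes. With total counts the median was 0.37, equal to that of all genes to 2 decimals. In that scaling 3 of 22 were higher, or 13.6% beside 17.3% of all genes, and 0 were lower, beside 4.44%. The 3 included the haem exporter gene Flvcr1 at a ratio of 2.30 and its relative Flvcr2 at 2.01. The higher one in the main scaling was Hebp2, a haem-binding protein gene, with 60 counts in the APAP library and 8 in the control library, a ratio of 6.07 (2.89 to 14.7). Pgrmc1, a haem-binding membrane protein gene and the most abundant of the list by CPM, was 1.73-fold lower (1.71 to 1.76), and Slc25a39, a mitochondrial carrier gene, had a ratio of 1.10 (1.08 to 1.12). Lonp1, whose mitochondrial protease degrades the Alas1 enzyme, had a ratio of 0.823 (0.799 to 0.848) that was 1.05 with total counts.

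Among 9 genes for uptake and plasma binding of haem, haemoglobin and iron, 6 had at least 20 counts, and by the 2-fold rule 2 of these were higher and 1 was lower, beside 10.7% and 7.09% of all genes. With total counts 3 were higher and 0 lower, beside 17.3% and 4.44%. The median log2 fold of the 6 was 0.74, and 1.09 with total counts. Trf, which encodes the iron carrier transferrin, had a ratio of 2.39 (2.38 to 2.40), and Tfrc, its receptor, had a ratio of 2.26 (2.04 to 2.50). Ambp, which encodes the haem-binding plasma protein alpha-1-microglobulin, had a ratio of 1.79 (1.77 to 1.80), or 2.27 with total counts, below those of Hp and Hpx in either scaling. Lrp1, which encodes the hepatocyte receptor for hemopexin bound to haem, had 85574 counts in the APAP library and 75541 in the control library, with a ratio of 0.916 (0.907 to 0.925) that was 1.16 with total counts. The lower gene was Lrp2, with 71 and 131 counts, 2.28-fold lower (1.70 to 3.09), and 1.80-fold lower with total counts.

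**Figure D5:**
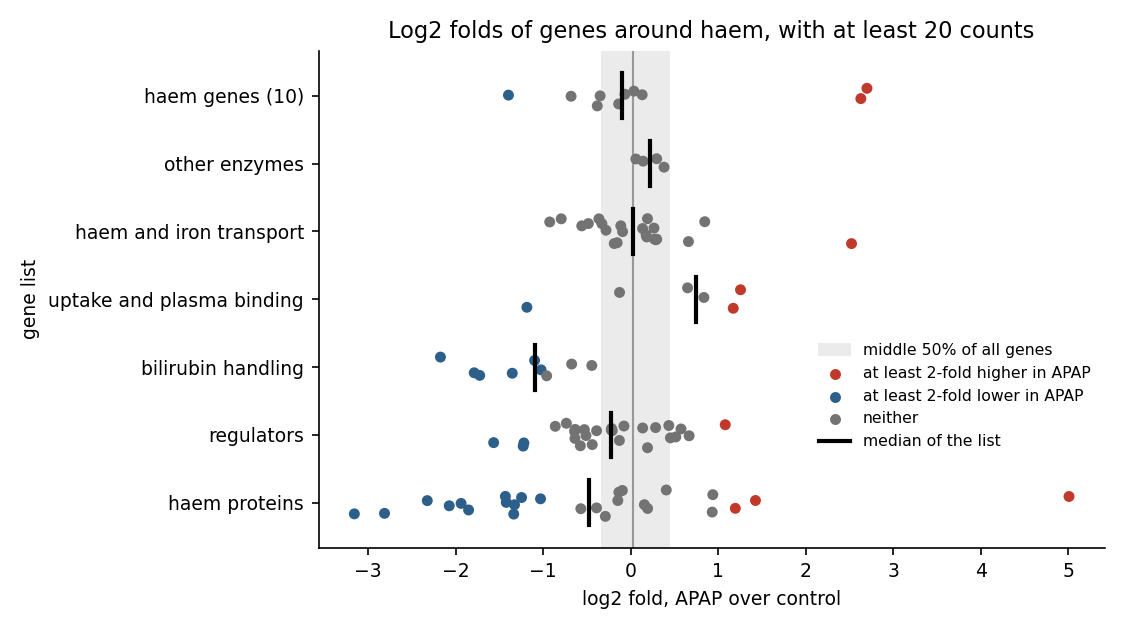
Log2 fold, APAP over control, of each gene with at least 20 counts in the 10 haem genes and in 6 lists of related genes (points, coloured by the 2-fold rule), with the median of each list (black bar), the median of all genes (grey line) and their middle 50% (grey band). The bilirubin list had a median of -1.10 and no member above 0, whereas transport genes centred on 0.02.

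Bilirubin, the end product of haem breakdown, is taken up, bound, conjugated and exported by hepatocytes. By the 2-fold rule 6 of 9 genes listed for these steps were lower in the APAP library and 0 higher, beside 7.09% and 10.7% of all genes. The median log2 fold was -1.10, which was the value of Slc10a1, a bile acid carrier gene that the list includes. With total counts 4 of 9 were lower, beside 4.44% of all genes, and the median was -0.75. Slco1b2, a hepatocyte uptake carrier of bilirubin, was 4.51-fold lower (4.44 to 4.58). Ugt1a1, the enzyme that conjugates bilirubin, was 3.45-fold lower (3.26 to 3.66). The other genes at least 2-fold lower were Gsta3, 3.30-fold (3.25 to 3.35), Slco1a1, 2.55-fold (2.50 to 2.61), Slc10a1, 2.14-fold (2.09 to 2.19), and Abcc2, the canalicular exporter of conjugated bilirubin, 2.03-fold (1.998 to 2.07). Gstm1, the most abundant of the list, had a ratio of 0.514 (0.509 to 0.520), Abcc3 one of 0.627 and Slco1a4 one of 0.736, none past the rule. With total counts Abcc2 and Slc10a1 had ratios of 0.625 and 0.594, short of 2-fold. Several of these genes belong to families with near-identical copies, and Ugt1a1 shares exons with its cluster, so single values are uncertain.

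Genes of haem proteins, and of subunits of complexes that hold haem, differed in both directions. Among 26 with at least 20 counts the 2-fold rule gave 12 lower and 3 higher, beside 7.09% and 10.7% of all genes, around a median log2 fold of -0.48. With total counts it gave 8 lower and 5 higher, beside 4.44% and 17.3% of all genes, around -0.13: Cyp1a2, Cyp27a1, Cyb5b and Suox fell short of 2-fold, and Cyp4a10 and Cyp2b10 passed it at ratios of 2.43 and 2.44. Cybrd1, a further gene of the list, was not listed in the count table. Cyp2e1, the main P450 that activates APAP, was 8.92-fold lower (8.84 to 8.99), Cyp7a1, the rate-limiting enzyme of bile acid synthesis, was 7.02-fold lower (6.70 to 7.37), and Cat, which encodes catalase, was 2.70-fold lower (2.67 to 2.72). The P450 genes Cyp2c29, Cyp7b1 and Cyp3a11 were 5.01-fold (4.94 to 5.07), 4.21-fold (4.08 to 4.34) and 3.83-fold (3.80 to 3.86) lower, with reads of Cyp2c29 and Cyp3a11 uncertain among near-identical copies. Cyp4a14, a fatty acid hydroxylase gene, had a ratio of 32.3 (30.5 to 34.2), Cyp51, of sterol synthesis, 2.69 (2.61 to 2.77), and Steap4, a metalloreductase gene, 2.29 (2.20 to 2.39). The haem protein list summed to 10150 CPM in the APAP library, against 29186 CPM in the control library, or 1.14% against 2.59% of all counts. The 6 synthesis genes summed to 1127 CPM in the APAP library against 1261 CPM in the control library, but to 0.127% against 0.112% of all counts, so the direction of their sum turned with the scaling. These sums weight long and abundant transcripts and compare the same genes between the libraries.

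Among 27 genes whose proteins regulate haem or scavenger genes, the 2-fold rule gave 1 higher and 3 lower, beside 10.7% and 7.09% of all genes, and with total counts 2 higher and 1 lower, beside 17.3% and 4.44%. Their median log2 fold of -0.22 turned to 0.12 with total counts. Stat3, the transcription factor gene of interleukin-6 signalling, had a ratio of 2.12 (2.04 to 2.19), and Cebpb, another acute phase factor gene, a ratio of 1.43 (1.39 to 1.47). The interleukin-6 receptor genes Il6ra and Il6st had ratios of 1.35 (1.28 to 1.43) and 1.37 (1.33 to 1.42). Socs3 and Cebpd, further genes of the list, had ratios of 0.672 (0.630 to 0.716) and 1.10 (0.976 to 1.24). Bach1, the haem-responsive repressor of Hmox1, had 1017 counts in the APAP library and 1916 in the control library and was 2.33-fold lower (2.16 to 2.52). Maff, a small MAF partner gene, was 2.96-fold lower (2.45 to 3.60). The other small MAF genes Mafk and Mafg had ratios of 1.49 (1.31 to 1.70) and 0.860 (0.809 to 0.914). Nfe2l2, which encodes NRF2, was 1.66-fold lower, with a ratio of 0.601 (0.568 to 0.637). Hnf4a and Cebpa, liver factor genes, had ratios of 0.949 (0.936 to 0.962), which was 1.21 with total counts, and 0.551 (0.539 to 0.563). Nr1d2, a clock repressor gene, was 2.34-fold lower (2.20 to 2.49), and Ppargc1a, a coactivator gene that drives Alas1 in fasting, had 317 and 161 counts with a ratio of 1.59 (1.31 to 1.94) that was 2.02 with total counts. With total counts Bach1 and Nr1d2 had ratios of 0.545 and 0.542, short of 2-fold.

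Library totals were 51009898 counts for APAP and 52419864 for control, so 1 count was worth 0.0174 and 0.0215 CPM. For hepatocyte identity, the 15 hepatocyte markers were all listed and took 11.3% of counts in the APAP library against 6.30% in the control library. Alb alone took 5.17% in the APAP library and 2.59% in the control library. Of the 15, 5 had a higher CPM in the APAP library, and the median log2 fold was -0.08. The high Cxcr2 of the label had no counterpart in these RNA counts, as given above for that gene. By the 2-fold rule 2 of the 15 hepatocyte markers were higher, beside 10.7% of all genes, and 0 were lower, beside 7.09%. The higher ones were the fibrinogen gene Fgb (3.35-fold) and the fetuin gene Ahsg (2.30-fold). Ptprc, which encodes CD45, and the duct markers Krt19 and Epcam were not listed. Endothelial markers summed to 34.2 CPM in the APAP library, against 23.8 CPM in the control library. Of the 13 endothelial markers listed, 11 had a higher CPM in the APAP library. By the 2-fold rule 6 of the 13 were higher and 1 was lower, beside 10.7% and 7.09% of all genes. Stellate cell and fibroblast markers summed to 11.4 CPM in the APAP library against 1.61 CPM in the control library, where 6 of the 13 listed were at 0 counts. Neutrophil markers summed to 505 and 1.12 CPM, of which Lcn2, which hepatocytes also express, held 492 and 0.860 CPM, with S100a8, S100a9 and Mpo not listed. Prtn3, another of them, had 735 counts in the APAP library and 8 in the control library, a ratio of 74.3 (37.5 to 173). All 5 listed neutrophil markers had a higher CPM in the APAP library, and 2 of them had at least 20 counts over both libraries. Cholangiocyte markers summed to 51.8 and 17.8 CPM and lymphocyte markers to 0.174 and 7.93 CPM. The part of these markers in the haem gene results was not tested.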

How the data were processed

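Messenger RNA was sequenced from sorted mouse hepatocytes in 2 libraries, 1 per group, with a kit from Tecan, as the labels' protocols say. HISAT2, Subread and build mm39 were used by the authors, per the submitters' processing notes. Their versions, annotation, strand setting and handling of read mates are not given in the sources used here. A deposited raw table holds counts per Ensembl gene, not normalized. The deposited normalized table holds a signal, the raw counts divided by 1 size factor per library (1.12 for APAP, 0.894 for control), and served as an alternative scaling.

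Symbols matched 20679 of 20823 identifiers. The other 144, with 0.185% of APAP and 0.155% of control counts, stayed in the totals. Counts were scaled to CPM with TMM factors (1.13 for APAP, 0.887 for control) of edgeR 4.0.16 in R 4.3.3. Ratios carry exact conditional Poisson (Clopper-Pearson) 95% intervals, and ratios of ratios a normal interval on the log scale (Python 3.11.15, numpy 2.4.6, scipy 1.17.1, pandas 2.3.3). Values given as n-fold lower are inverse ratios. List medians used log2 folds with a prior of 0.5 counts. RPKM used exon lengths of GENCODE M21 (GRCm38), so no coordinates of the counted genes are given. Reads carried no molecular identifiers, and 70.6% of counts from 1 to 20 in the APAP library and 68.3% in the control library were even numbers, so each fragment may have given 2 counts, in which case the true intervals are wider.

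Steps were tested on simulated data. Protein sequences were not used here. A few genes of the lists are not reported here. The members and lists were chosen with earlier results of these data known. Named genes were the 10 members, the 4 other enzymes and, per list, the 4 farthest genes per direction that met the 2-fold rule, the 3 highest by mean CPM, and the 2 genes nearest to each member, of which those of Hp, Hpx and Alas2 are printed. Slc10a1, Abcc2, Il6ra, Il6st, Socs3, Cebpd, Mafk, Mafg, Nfe2l2, Ppargc1a, Lrp1, Flvcr1, Flvcr2, Abcc3, Slco1a4, Cyp1a2, Cyp27a1, Cyb5b, Suox, Cyp4a10, Cyp2b10, Cd163, Cxcr2 and the marker genes given as near 0 or not listed were added after their values were seen.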

Additional observations from a re-analysis of the deposited data

How the results depend on the processing

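With DESeq2 1.42.0 size factors, the authors' normalized signal and upper quartile factors, log2 folds moved by -0.02, -0.02 and -0.01, and no gene count below changed by over 1.5 times. Scaling by total counts shifted log2 folds by 0.35, and totals without genes above 1% of a library by 0.34. The numbers of haem genes called, 2 higher and 1 lower, held under all 5 scalings, with counts halved for the interval, with no minimum and with a minimum of 100 counts. At 1.5-fold, 2 haem genes were lower. With total counts, 6 of the 10 genes had ratios above 1, against 4 in the main scaling. Of all genes, 2435 were higher and 626 lower with total counts, 2423 and 629 without genes above 1%, 2485 and 1843 at 1.5-fold, and 817 and 634 with a minimum of 100 counts, against 1513 and 999. Among genes past 2-fold, 60.2% were higher with the TMM, 79.5% under total counts and 79.4% when genes above 1% were left out. The 6 related lists had 4, 22, 6, 9, 27 and 26 genes with at least 20 counts. Of these, 7 were higher and 22 lower, beside 10.7% and 7.09% of all genes. With total counts 13 were higher and 13 lower, beside 17.3% and 4.44% of all genes, and the numbers were the same without genes above 1%. At 1.5-fold 14 were higher and 31 lower, beside 17.6% and 13.1% of all genes. With the longest transcript as length, chosen after seeing the data, 8 of 14 genes changed place in the order of levels per length in the APAP library and 4 of 14 in the control library. No paired analysis was possible because each group had 1 library. Depth limited Hmox1 and Blvra most among the enzymes.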
